A study of Homo sapiens with 6 samples.

Results

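The 8 genes BCL2L11 (BIM), PMAIP1 (NOXA), BMF, BBC3 (PUMA), BIK, BID, BAD and HRK encode the BH3-only proteins of the BCL2 family. They were chosen by name, and all 8 are among the 23228 genes for which reads were counted. The RNA came from HEC-1-A, an established cell line of human endometrial carcinoma, grown in McCoy's 5A medium with 10% serum. There were 3 control and 3 SMIP34 libraries. Control cells were given vehicle according to the study's methods, while their labels name the medium alone. SMIP34 cells were given SMIP34, a small molecule that binds the protein PELP1 and promotes its degradation, at 20 µM for 24 h. All libraries come from 1 cell line, and nothing in the labels says that the replicates were separate cultures, so p-values measure the spread between these libraries, which may be technical.

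BH3-only proteins start apoptosis through mitochondria. Each carries a short helix, the BH3 domain, that fits into a groove of the survival proteins BCL2, BCL-XL, BCL-W and MCL1, and so frees the effectors BAX and BAK to open the outer mitochondrial membrane. BIM and cleaved BID can also engage the effectors directly. Cells control these proteins at many levels: BCL2L11 is a target of FOXO factors, BIM and BMF are held by dynein light chains, BAD is inactivated by phosphorylation, and BID is activated by cleavage by caspase-8. Counts of mRNA show only the first of these levels.

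The BH3 core is what the 8 genes share, so its coding sequence is shown for each, read from the coding exons of the GENCODE release 44 canonical transcript on GRCh37, the assembly of the hg19 coordinates in the files. Each line holds 36 bases (12 codons), 5′ to 3′ on the strand of the gene. The first capitals mark the codon of the conserved leucine and the second the codon of the conserved aspartate.
BCL2L11, chr2:111907674-111907709, + strand: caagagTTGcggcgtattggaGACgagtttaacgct
BMF, chr15:40396396-40396431, - strand: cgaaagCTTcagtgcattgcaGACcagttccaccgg
BBC3, chr19:47729836-47729871, - strand: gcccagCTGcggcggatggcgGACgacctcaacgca
PMAIP1, chr18:57569899-57569934, + strand: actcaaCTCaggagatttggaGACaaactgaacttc
BIK, chr22:43523716-43523751, + strand: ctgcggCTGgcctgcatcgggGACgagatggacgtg
BID, chr22:18222181-18222216, - strand: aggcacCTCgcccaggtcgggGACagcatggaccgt
BAD, chr11:64039094-64039129, - strand: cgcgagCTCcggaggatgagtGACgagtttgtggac
HRK, chr12:117318975-117319010, - strand: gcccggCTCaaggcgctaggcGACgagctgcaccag

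Each core lies within 1 exon, and all 8 lie in exons over which the reads were counted. The codon before the aspartate codon encodes glycine in BCL2L11, PMAIP1, BIK, BID and HRK, alanine in BMF and BBC3, and serine in BAD. The sequences otherwise differ widely. Over the 28 pairs of genes, between 13 and 23 of the 36 bases were the same, with a median of 18. These counts include the marked codons, which the search itself constrains. The closest pair in bases was BCL2L11 and BBC3. The cores were located by a pattern of a leucine, 3 residues of any kind, a glycine, alanine or serine, an aspartate, 1 residue of any kind and a hydrophobic residue. Each of the 8 proteins held exactly 1 match, but so short a pattern also occurred in 12.7% of the 19553 canonical proteins searched, so a match alone does not make a BH3 protein. The proteins themselves are short, from 54 residues for NOXA to 198 residues for BIM in these transcripts.

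Levels are given in 2 units. CPM (counts per 1000000 counts) set the count of a gene against its library's total after TMM scaling, and serve to compare libraries. RPKM are CPM per kilobase of annotated exon, and serve to compare genes. A gene was called at an adjusted p under 0.05 in edgeR's quasi-likelihood test over all 13408 genes that passed the filter on low counts, and the fold limit used beside it is an absolute log2 fold change over 0.5. SE is the standard error of a log2 fold change.

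Library totals ran from 19562711 to 22014835 counts. The 8 epithelial markers fixed for the check of the cell line, among them EPCAM, CDH1, KRT8 and PAX8, were all above 1 CPM, with a summed level of 3954 to 4077 CPM in control and 3889 to 3921 CPM in SMIP34 libraries. Leukocyte markers summed to at most 0.501 CPM and endothelial markers to at most 0.876 CPM. CD3E had no count in any library. Fibroblast markers summed to 5.20 to 6.25 CPM in control and 6.29 to 6.66 CPM in SMIP34 libraries, and of the 3 that were tested COL1A1 was called higher, with means of 2.96 CPM in control and 4.19 CPM in treated libraries, while PDGFRB (0.871 and 0.599 CPM) and THY1 (1.97 and 1.64 CPM) had lower means and were not called. Their part in the results below was not tested.

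In control cells the BH3-only mRNAs spanned nearly 3 orders of magnitude. BAD was highest, at 68.7 ± 2.94 RPKM (SD, n = 3), and alone made up 47.8% of the summed RPKM of the 8 genes. BID followed at 24.4 ± 1.46 RPKM, PMAIP1 at 19.4 ± 0.460 RPKM, BIK at 14.9 ± 0.759 RPKM and BBC3 at 11.4 ± 0.932 RPKM (SD, n = 3 each). BCL2L11 was lower, at 4.39 ± 0.111 RPKM, and HRK, known mainly from neurons, and BMF were near the limit of detection, at 0.406 ± 0.294 and 0.0850 ± 0.0305 RPKM (SD, n = 3 each). The ranges of neighbours in this order did not overlap in control cells, although HRK rests on counts of 2 to 11 per library. HRK stands above BMF in RPKM only, through annotated exons of 697 bases against 4767. In CPM its control mean was the lower, at 0.283 against 0.405 CPM. The order was the same in SMIP34 cells, where the ranges of HRK and BMF overlapped. The annotated exons of BCL2L11 (6212 bases) and BMF (4767 bases) include long stretches outside the coding region, so their RPKM would be higher if the cells used shorter forms.

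**Figure D1:**
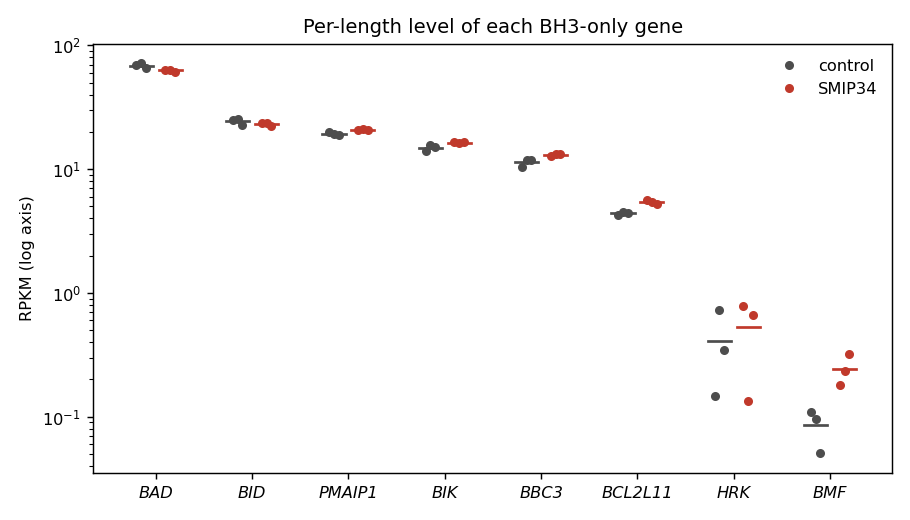
RPKM (CPM per kilobase of exon, log axis) of each BH3-only gene in the 3 control and 3 SMIP34 libraries; points are libraries and lines are group means. BAD lies above all others, BID, PMAIP1, BIK, BBC3 and BCL2L11 follow in this order, and HRK and BMF lie under 1 RPKM.

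With SMIP34, BCL2L11, BMF and BBC3 rose, BAD fell, and PMAIP1, BIK and BID did not pass the test. HRK had too few counts to be tested. At this adjusted p 34.6% of all genes tested were called, 17.4% higher and 17.2% lower, so 3 genes higher and 1 lower among the 8 has to be read against a frequent background. The fold limit was passed by BMF alone of the 8, against 3.31% of all genes tested in either direction and 1.44% higher. In 5 of the 8 genes every SMIP34 library lay above every control library, in 1 every SMIP34 library lay below, and 2 overlapped, where 22.6% and 21.9% of all genes tested were separated in these directions. Less mRNA per cell and fewer cells with the mRNA cannot be told apart in these bulk libraries.

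**Figure D2:**
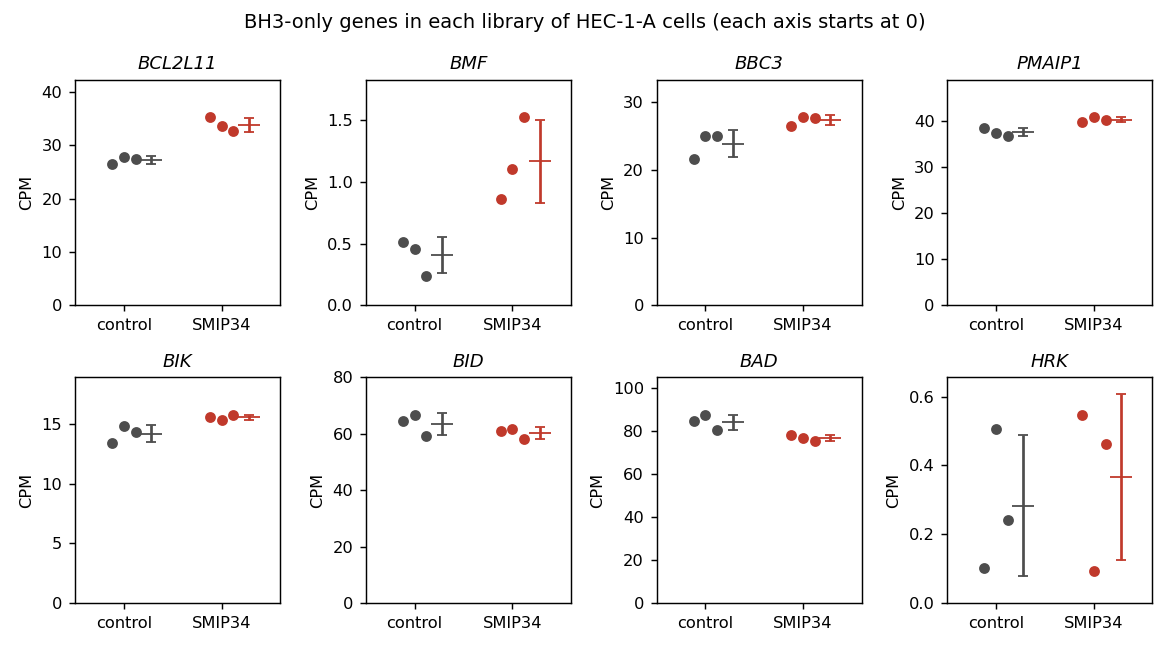
CPM of the 8 BH3-only genes in each library, each panel with its own axis from 0; points are libraries, and the bar beside them is the mean with its SD (n = 3). The groups are apart in BCL2L11, BMF, BBC3, PMAIP1, BIK and BAD, and overlap in BID and HRK.

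BCL2L11 encodes BIM, which binds all the survival proteins and is held in check by dynein light chain and by ERK phosphorylation. The gene lies on chromosome 2 of hg19, from 111878491 to 111926022 on the + strand. Its level was 26.5, 27.8 and 27.5 CPM in control replicates 1, 2 and 3 and 35.3, 33.6 and 32.7 CPM in SMIP34 replicates 1, 2 and 3. All treated libraries were thus well above all controls, and replicates of a group lay close together. From 27.3 ± 0.689 CPM in control the mean rose to 33.9 ± 1.30 CPM (SD, n = 3 each), which is a difference of 0.31 on the log2 scale (SE 0.056, edgeR adjusted p = 8.18e-05). This is a rise of 24.1%, with a 95% interval from 14.7 to 34.3%. BCL2L11 was called in all 19 alternative fits, with log2 fold changes from 0.24 to 0.34. GENCODE lists 6 coding transcripts for it on GRCh37, and counts per gene do not tell the forms of BIM apart.

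BMF, like BIM, is bound by a dynein light chain and is known for its part in the death of cells that lose attachment. The gene lies on chromosome 15 of hg19, from 40380092 to 40401075 on the - strand. Its raw counts were 10, 10 and 5 in control replicates 1, 2 and 3 and 19, 24 and 33 in SMIP34 replicates 1, 2 and 3. These are the lowest counts among the genes of the family that were tested, and the groups did not overlap. The mean was 0.405 ± 0.145 CPM in the control and 1.17 ± 0.333 CPM in the SMIP34 group (SD, n = 3 each), and the log2 fold change was 1.52 (SE 0.37, edgeR adjusted p = 0.00231). Summed over a group, the counts were 25 in control (exact Poisson 95% interval 16.2 to 36.9) and 76 in SMIP34 libraries (59.9 to 95.1), where the intervals cover counting error only.

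BMF passed the filter on low counts only through the treated group: 3 SMIP34 libraries and 1 control library were above its limit of 0.465 CPM. A gene that enters the test this way had to differ, so its call is read with the fit without that filter, where its log2 fold change was 1.52 and its adjusted p 0.0025. The size of the change is uncertain, with a 95% interval of the log2 fold change from 0.75 to 2.28 and a value of 0.28 under DESeq2's normal prior, which shrinks changes of low genes. Even in treated cells BMF made up 0.172% of the summed RPKM of the 8 genes.

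BBC3 encodes PUMA, which binds all the survival proteins. The gene lies on chromosome 19 of hg19, from 47724079 to 47736023 on the - strand. Its level was 21.6, 25.02 and 25.02 CPM in control replicates 1, 2 and 3 and 26.5, 27.8 and 27.7 CPM in SMIP34 replicates 1, 2 and 3. Control replicate 1 stood below the other 2 controls, which were within 2 CPM of the lowest treated library. The log2 fold change was 0.19 (SE 0.064, edgeR adjusted p = 0.0208), a rise of 14.2% with a 95% interval from 4.27 to 25.1%. The call was lost without control replicate 1 (log2 fold change 0.13, adjusted p = 0.144), without SMIP34 replicate 2 (0.18, adjusted p = 0.0692), without SMIP34 replicate 3 (0.18, adjusted p = 0.0628) and with DESeq2 (0.19, adjusted p = 0.0620), while the direction held in all 19 alternatives.

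PMAIP1 encodes NOXA, which binds MCL1 above all and leads to its degradation. The gene lies on chromosome 18 of hg19, from 57567192 to 57571538 on the + strand. It stood at 38.5, 37.5 and 36.8 CPM in control replicates 1, 2 and 3 and at 39.8, 40.8 and 40.3 CPM in SMIP34 replicates 1, 2 and 3. The groups were apart by little more than 1 CPM. The log2 fold change was 0.10 (SE 0.049, edgeR adjusted p = 0.109, unadjusted p = 0.0469), with a 95% interval of the change from 0.102 to 14.9%. The interval is not adjusted for the number of genes tested, so it excludes no change although the gene was not called. A larger rise is outside the interval of this fit only. In the fit with offsets on exon length, given below, the log2 fold change was 0.15 (SE 0.048).

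BIK encodes a BH3-only protein found mainly at the endoplasmic reticulum. The gene lies on chromosome 22 of hg19, from 43506757 to 43525718 on the + strand. It stood at 13.4, 14.8 and 14.3 CPM in control replicates 1, 2 and 3 and at 15.6, 15.4 and 15.8 CPM in SMIP34 replicates 1, 2 and 3. The treated libraries were closer to each other than the controls and lay above them. The log2 fold change was 0.13 (SE 0.077, edgeR adjusted p = 0.191), with a 95% interval of the change from -1.72 to 22.4%.

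BID, which links death receptors to mitochondria once caspase-8 cuts it, lies on chromosome 22 of hg19, from 18216906 to 18257258 on the - strand. It stood at 64.6, 66.7 and 59.3 CPM in control replicates 1, 2 and 3 and at 61.2, 61.7 and 58.1 CPM in SMIP34 replicates 1, 2 and 3. The lowest control lay among the treated libraries. The log2 fold change was -0.076 (SE 0.045, edgeR adjusted p = 0.205), with a 95% interval of the change from -11.1 to 1.19%. Without control replicate 3 the difference was called, with a log2 fold change of -0.12 (adjusted p = 0.0336).

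BAD, which binds BCL2 and BCL-XL and is kept inactive by survival kinases such as AKT, lies on chromosome 11 of hg19, from 64037300 to 64052176 on the - strand. It stood at 84.5, 87.5 and 80.3 CPM in control replicates 1, 2 and 3 and at 78.2, 76.9 and 75.3 CPM in SMIP34 replicates 1, 2 and 3. All treated libraries were below all controls. From 84.1 ± 3.60 CPM in control the mean fell to 76.8 ± 1.43 CPM (SD, n = 3 each), which is a difference of -0.13 on the log2 scale (SE 0.039, edgeR adjusted p = 0.0104), with a 95% interval of the change from -13.6 to -3.45%. The call was lost without control replicate 2 (log2 fold change -0.100, adjusted p = 0.0825) and without SMIP34 replicate 3 (-0.12, adjusted p = 0.0544). Its exons share 128 bases with GPR137 on the other strand, and the reads were counted by strand.

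HRK, on chromosome 12 of hg19 from 117299027 to 117319232 on the - strand, had 2, 11 and 5 counts in control replicates 1, 2 and 3 and 12, 2 and 10 counts in SMIP34 replicates 1, 2 and 3. High and low libraries occurred in both groups, and counts of 2 are under the 3 counts taken as the limit of detection in a library. In the fit without a filter on low counts its log2 fold change was 0.34 with a 95% interval from -0.86 to 1.53, so no difference was detectable at this depth, and the interval spans large changes in either direction.

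The 8 genes differ in exon length, and in these libraries fold changes moved with length. The genes tested were split into 10 bins of about equal size, bin 1 holding the shortest exons. The median log2 fold change was -0.10 in bin 1 and 0.12 in bin 10. BIK (950 bases) is in bin 1, where 4.10% of genes were called higher and 32.8% lower, and it lay 0.24 above that bin's median. PMAIP1 and BBC3 are in bin 3, with a median of -0.059, and lay 0.16 and 0.25 above it. BCL2L11 is in bin 9, with a median of 0.053, and lay 0.26 above it. BAD is in bin 2, with a median of -0.073, and at -0.13 was within the spread of genes of its length.

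**Figure D3:**
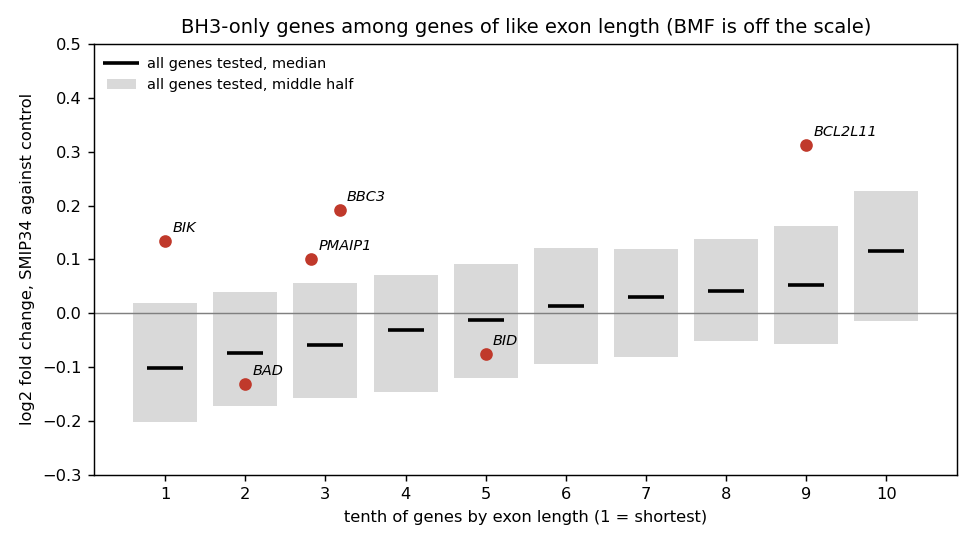
Log2 fold change (SMIP34 against control) of all genes tested in 10 bins of exon length, 1 being the shortest; grey bars are interquartile ranges, black lines medians, and red points the BH3-only genes, with BMF (1.52, bin 8) off the scale. BIK, PMAIP1, BBC3 and BCL2L11 lie above the interquartile range of genes of like length, while BAD and BID lie within it.

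With offsets that take each library's trend with exon length out, the calls among the family changed. PMAIP1 then had a log2 fold change of 0.15 (edgeR adjusted p = 0.0132) and BIK of 0.23 (adjusted p = 0.0253), so both were called higher. BAD was no longer called, with a log2 fold change of -0.055 (adjusted p = 0.250). BCL2L11 (0.26), BBC3 (0.24) and BMF (1.49) stayed higher at adjusted p values of 0.000473, 0.00403 and 0.0025. In this fit 5 of the genes were called higher and none lower, where 16.6% of all genes tested were called higher and 14.9% lower.

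Exon GC content moved the same genes, though not in the same way. PMAIP1 has the lowest exon GC content of the 8, at 37.1%, and BAD, BBC3 and HRK the highest, at 66.7, 67.5 and 67.6%. With offsets on GC content alone the log2 fold change of PMAIP1 was 0.048 (edgeR adjusted p = 0.469), and that of BAD was -0.080 (adjusted p = 0.110). With offsets on length and GC content together BIK was called (0.24, adjusted p = 0.0165), PMAIP1 was just short of the threshold (0.11, adjusted p = 0.0588), and BAD was not called (-0.047, adjusted p = 0.322). BCL2L11, BBC3 and BMF were called higher in each of these 3 fits, and none of the fits turned the direction of a gene of the family.

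**Figure D4:**
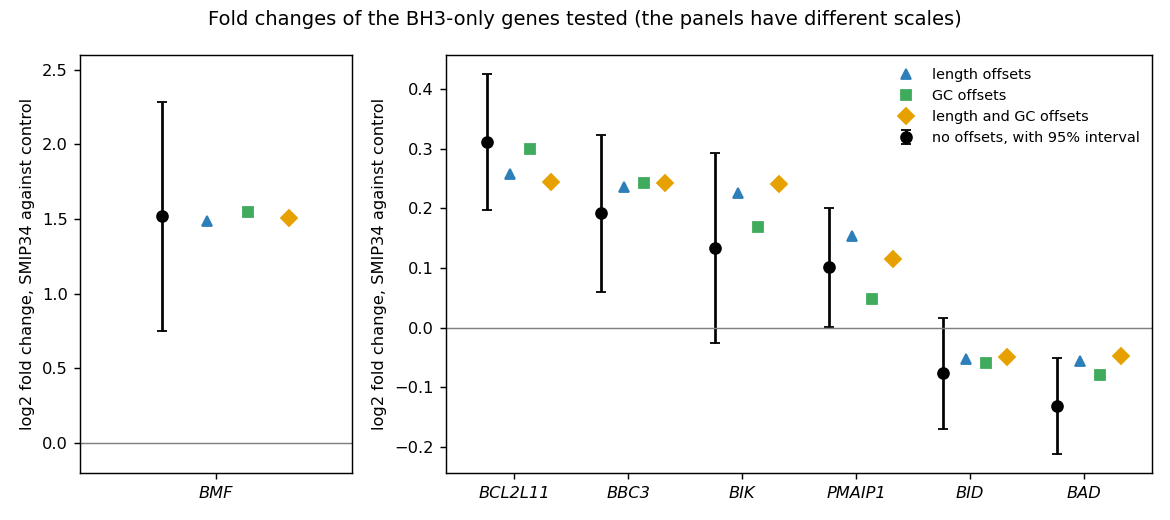
Log2 fold change (SMIP34 against control) of the 7 BH3-only genes tested, with the 95% interval of the fit without offsets (black) and the values with offsets on exon length, on GC content and on both; BMF has its own scale. BCL2L11, BBC3 and BMF lie above 0 in every fit, with length offsets BIK lies higher and BAD closer to 0, and PMAIP1 depends on which is used.

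Summed over the 8 genes, the RPKM did not separate the groups: the sum was 143, 149 and 139 RPKM in control replicates 1, 2 and 3 and 144, 143 and 141 RPKM in SMIP34 replicates 1, 2 and 3. Lower means of BAD, the most abundant of them, and of BID stood against higher means of the others. The share of BAD in the sum was 44.1% in treated cells. The difference of the summed means was -1.33 RPKM. It turned positive with scaling by library size only (0.518 RPKM) and without control replicate 2 (1.54 RPKM). The 6 survival genes (BCL2, BCL2L1, BCL2L2, MCL1, BCL2A1 and BCL2L10) summed to 205, 203 and 202 RPKM in control replicates 1, 2 and 3. In SMIP34 replicates 1, 2 and 3 they summed to 197, 186 and 193 RPKM, all below all controls. Of single genes tested, 21.9% were separated in this direction. Most of the sum is BCL2L1, with means of 153 RPKM in control and 139 RPKM in SMIP34 libraries. MCL1 rose from 34.3 to 37.1 RPKM, so the lower sum follows BCL2L1 and not the list as a whole. The 3 effectors BAX, BAK1 and BOK summed to 118 ± 2.28 RPKM in control and 112 ± 4.54 RPKM in treated cells (SD, n = 3 each). These sums weigh genes by mRNA only and say nothing of the proteins.

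Among the survival genes, the partners that BH3 domains bind, 1 was called higher and 1 lower of the 4 tested. Over all genes tested, 17.4% were called higher and 17.2% lower. The median log2 fold change of the survival genes was 0.014, against -0.0022 over all genes tested. BCL2L1, the gene of BCL-XL and the most abundant of them, was at 391 ± 1.05 CPM in control and fell to 356 ± 14.3 CPM (SD, n = 3 each), a difference of -0.14 on the log2 scale (edgeR adjusted p = 0.000591). MCL1, the short-lived partner of NOXA and BIM, rose from 140 ± 3.46 to 152 ± 1.49 CPM (log2 fold change 0.11, adjusted p = 0.00611). BCL2 itself was low, at 2.61 and 2.75 CPM, and BCL2L2 had a log2 fold change of -0.041.

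Of the effectors, none was called higher and 2 of the 3 lower, with a median of -0.11. The shares over all genes tested were 17.4% higher and 17.2% lower, and 3 genes are too few to set against them. BOK had a log2 fold change of -0.19 (edgeR adjusted p = 0.0143) and BAX of -0.11 (adjusted p = 0.0341). With length offsets BAX was at -0.035 and was not called (adjusted p = 0.506), while BAK1 was called higher at 0.12 (adjusted p = 0.0238). Among other proteins with a BH3 motif, 3 of 4 were tested. The mitophagy receptors BNIP3 (0.076) and BNIP3L (0.12) rose, and BECN1, a part of the autophagy machinery, fell (-0.091), all in log2 fold changes. With length offsets BNIP3 was at 0.14 and was called, while BECN1 was at -0.048 and was not called (edgeR adjusted p = 0.269).

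Downstream of the effectors, 3 of 7 genes of the apoptosome and of proteins released from mitochondria were called higher and none lower. Their median log2 fold change was 0.097, and 17.4% of all genes tested were called higher and 17.2% lower. APAF1, the scaffold of the apoptosome, rose by 0.19 (edgeR adjusted p = 0.00296) and CYCS, cytochrome c, by 0.12 (adjusted p = 0.000889), both on the log2 scale. The count of CYCS is uncertain, since the genome holds many processed copies of it. CASP9, the initiator caspase of the apoptosome, was at 0.097 and was not called. With length offsets 3 were called higher and none lower, against the 16.6 and 14.9% of all genes called in that fit, and APAF1 was at 0.12 and CYCS at 0.078.

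Of 12 transcription factors known to act on BH3-only genes, 11 were tested, of which 3 were called higher and 3 lower. Their median log2 fold change was -0.048, and 17.4% of all genes tested were called higher and 17.2% lower. JUN, which acts on BCL2L11 and HRK in neurons, stood at 36.01, 39.5 and 35.1 CPM in control replicates 1, 2 and 3 and at 94.1, 96.0 and 96.7 CPM in SMIP34 replicates 1, 2 and 3. Its log2 fold change of 1.37 (edgeR adjusted p = 1.56e-18) and that of ATF3, a stress factor of the ATF/CREB family (1.68, edgeR adjusted p = 1.45e-14), were the only ones of the list called and past the fold limit. TP73 was at -0.55 and was not called (edgeR adjusted p = 0.0781). FOXO3, a direct activator of BCL2L11, rose by 0.23 on the log2 scale (edgeR adjusted p = 0.00553), although its groups overlapped by 1 library. ATF4 (-0.37) and DDIT3 (-0.22), factors of the integrated stress response that act on PMAIP1, BBC3 and BCL2L11, fell. With length offsets 3 of the list were called higher and 4 lower, against 16.6 and 14.9% of all genes tested. FOXO1 (-0.14, edgeR adjusted p = 0.0374) was added to those lower, and DDIT3 was at -0.15. FOXO3 was then at 0.15 and closer to the threshold (edgeR adjusted p = 0.041).

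Among 20 kinases, binding partners, proteases and ligases that act on BH3-only proteins or on MCL1, 5 were called higher and 2 lower. Their median log2 fold change was 0.056, and 17.4% of all genes tested were called higher and 17.2% lower. PIM1, a kinase that phosphorylates BAD, had the largest increase (0.47, edgeR adjusted p = 3.88e-05). It was followed by YWHAG (0.28), one of the adaptors that hold phosphorylated BAD in the cytosol. Of the other adaptors of this family, YWHAQ was called lower (-0.073, edgeR adjusted p = 0.0286), and YWHAB, YWHAE, YWHAH and YWHAZ were not called. With length offsets YWHAQ was not called, and YWHAE was called higher (0.079, edgeR adjusted p = 0.00514). USP9X and HUWE1, a deubiquitinase and a ligase of MCL1, were at 0.23 and 0.19, and 0.10 and 0.046 with length offsets, where HUWE1 was not called. MAPK3, the gene of ERK1, fell (-0.22, adjusted p = 3.69e-05). The dynein light chains DYNLL1 (0.0098) and DYNLL2 (0.052), which hold BIM and BMF, and CASP8 (0.063), which cuts BID, were not called. With length offsets DYNLL1 (0.10, edgeR adjusted p = 0.0098) and DYNLL2 (0.12, edgeR adjusted p = 0.0101) were called higher and CASP8 was not. In that fit the list had 7 genes higher and 1 lower, where 16.6% of all genes tested were called higher and 14.9% lower.

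**Figure D5:**
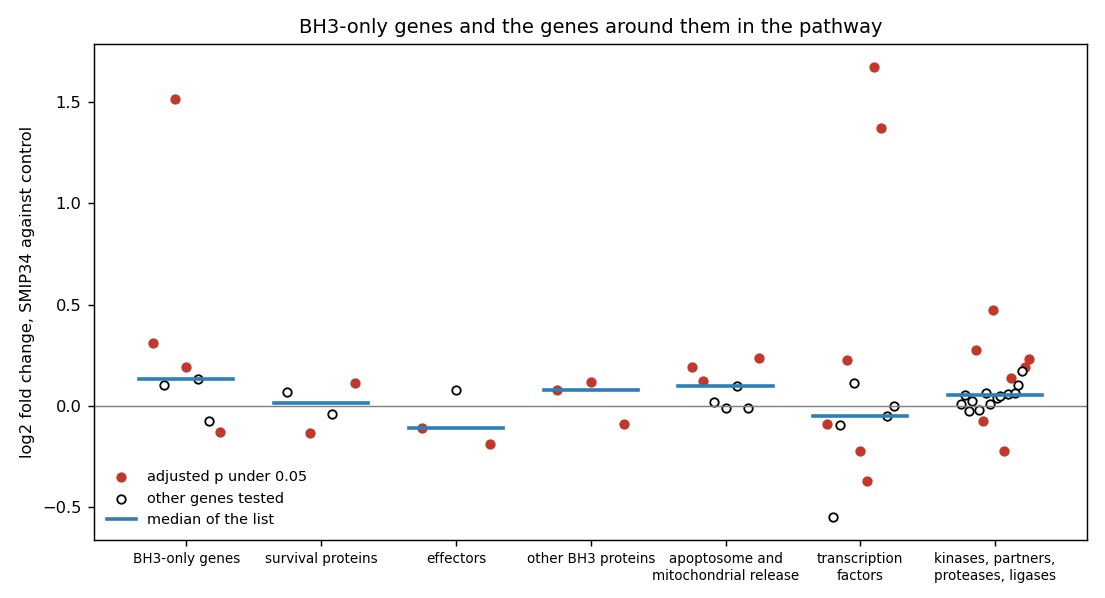
Log2 fold change (SMIP34 against control) of every gene tested in the 7 lists; red points had an adjusted p under 0.05, open points did not, and blue lines are list medians. Most genes lie within 0.5 of 0, and the exceptions above are BMF among the BH3-only genes and JUN and ATF3 among the transcription factors, with TP73 (-0.55, not called) below.

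The promoters of the BH3-only genes were searched for motifs of factors in these lists, using RefSeq windows on GRCh38.p14 from 250 bases before to 50 after a start. Windows were found for 7 of the 8 genes (13 starts), and BIK had none. The letters searched on both strands were TGANTCA for AP-1, TGACGTCA for a cyclic AMP response element, TGTTTAC for FOXO, and TGATGNAAT for ATF4 with a C/EBP partner, beside the TTTCGCGC of E2F and an NF-kB motif. Over these 6 motifs the windows of the BH3-only genes held 2 matches, in BCL2L11 and BBC3, and these windows are shown because they matched. The windows of BMF, PMAIP1, BID, BAD and HRK held none of the 6. The GC box, GGGCGG, was in 10 of the 13 windows, against 45.0% of all. The 10 belong to BAD, BCL2L11, BID, BMF, HRK and PMAIP1. Windows of BID and of BAD overlap each other, so the same boxes are counted more than once. The BCL2L11 window (chr2:111120664-111120963, + strand) held the FOXO letters, which 3.42% of all 35116 windows hold, and the BBC3 window (chr19:47232618-47232917, - strand) held the AP-1 letters, which 7.71% hold. The letters of the cyclic AMP response element, ATF4, NF-kB and E2F are held by 1.85, 0.991, 0.558 and 0.515% of all windows. Over 13 windows such rates leave room for a few matches, so the 2 matches do not set these genes apart. Capitals mark the match.
BCL2L11: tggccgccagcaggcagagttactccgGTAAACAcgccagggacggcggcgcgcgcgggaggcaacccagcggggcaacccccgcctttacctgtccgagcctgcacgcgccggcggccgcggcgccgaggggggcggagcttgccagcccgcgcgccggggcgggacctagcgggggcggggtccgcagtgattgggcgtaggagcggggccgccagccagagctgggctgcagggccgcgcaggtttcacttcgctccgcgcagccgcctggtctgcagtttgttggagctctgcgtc
BBC3: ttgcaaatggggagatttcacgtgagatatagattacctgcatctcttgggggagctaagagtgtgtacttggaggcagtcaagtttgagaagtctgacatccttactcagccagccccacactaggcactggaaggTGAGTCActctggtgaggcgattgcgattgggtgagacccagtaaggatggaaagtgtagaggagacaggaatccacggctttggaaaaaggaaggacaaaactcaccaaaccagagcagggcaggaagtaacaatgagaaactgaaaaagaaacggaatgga
The windows differ in composition, with 74.7% GC and 39 CpG pairs in BCL2L11 and 48.0% GC and 5 CpG pairs in BBC3, against medians of 58.7% and 14 over all windows. A match of letters is no evidence of binding, and the windows leave out most of what controls these genes.

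For each BH3-only gene that was called and had a mean of at least 1 CPM, the 3 genes whose log2 CPM followed it most closely over the 6 libraries were listed, as a description only. They were PMEPA1, ETV3 and GEMIN4 for BCL2L11 (Pearson r from 0.995 to 0.997), BRIX1, VANGL1 and LRP5 for BBC3 (0.990 to 0.993) and TECR, GPT2 and RPL7A for BAD (0.998 to 0.999). Each set of 3 was picked as the closest of 12604 genes, so a high r over 6 libraries in 2 groups follows from this choice. How many other genes come nearly as close was not counted.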

How the data were processed

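The 6 libraries of HEC-1-A RNA were grouped by their labels into control (n = 3) and SMIP34 (n = 3). The deposited values are estimated counts per gene. Per the file headers, the authors ran featureCounts 1.5.0-p1 by strand over exons of the UCSC hg19 annotation at a mapping quality of at least 2, with each read that had several alignments or overlapped more than 1 gene divided between them. The submitters' processing notes name HISAT2, the study's methods tophat2 and HTSeq. The labels name library kits of different makers.

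Counts were rounded to whole numbers, filtered with filterByExpr, scaled by TMM and tested over 13408 genes by quasi-likelihood in edgeR 4.0.16 (legacy set to FALSE) under R 4.3.3, with Benjamini-Hochberg adjustment. CPM and RPKM use the TMM-scaled totals, and log2 CPM a prior count of 2. Intervals of fold changes come from a standard error of the log2 fold change derived from the F statistic. The biological coefficient of variation was 3.03%. Named genes are the 8 members, genes of 6 pathway lists and the 3 genes most like each called member. Some list genes that enter the counts are not reported here by name. The members and lists were chosen with earlier results of these data known. Alternatives were DESeq2 1.42.0, limma 3.58.1 (voom), 3 scalings, 2 filters, the legacy method, a replicate block, length offsets (loess, span 0.3) and leaving out each library. Offsets on GC content were added after seeing the data. Code was tested on simulated data. Figures used matplotlib 3.10.9.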

Additional observations from a re-analysis of the deposited data

How the results depend on the processing

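Over 19 alternatives no BH3-only gene changed direction. BCL2L11 was called in all 19 and BMF in the 18 fits that held it, being removed by a minimum of 1 CPM. BBC3 and BAD were called in 14 of 19 each, BIK in 2, and PMAIP1 and BID in 1 each. For BMF these calls are no separate support. Only the fit without a filter on low counts was free of the filter that BMF passed through the treated group. There BMF was called (edgeR adjusted p = 0.0025). The number of BH3-only genes called was 4 and lay between 2 and 5 when each library was left out in turn, with 2 without SMIP34 replicate 3. Without that library BMF and BCL2L11 were called. The number of all genes past both thresholds was 444 and became 117 (69 higher and 48 lower) with DESeq2's normal prior, which shrinks fold changes by construction, and 323 with DESeq2 without it. Replicate numbers recur in both groups, but their libraries did not deviate together (correlations -0.028, 0.033 and -0.011), which gives no ground for pairing; with the replicate block 453 genes passed both thresholds, 4432 passed the adjusted p and the same 4 BH3-only genes were called. Depth limits what can be said of HRK and of the size of the change in BMF, where 1 count is worth 0.0456 to 0.0515 CPM.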
